A study of Mus musculus with 36 samples.

Results

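The 8 single oocytes kept in tubes numbered 27 to 30 (4 labelled Drp1_KO and 4 labelled Drp1_WT) were compared with 22 oocytes from tubes numbered 1 to 15 of the same mouse series. The 8 are all oocytes of the 36 in the series whose sample name carries a tube number from 27 to 30. The Drp1_KO oocytes of this tube set came from mouse d, and the Drp1_WT oocytes came from mouse 5. The oocytes of tubes 1 to 15 were 13 labelled Drp1_KO, from mice a, b and c, and 9 labelled Drp1_WT, from mice 1, 2 and 3. The other 6 oocytes, Drp1_KO tube 10 of mouse b and Drp1_WT tubes 11 to 15 of mice 3 and 4, were left out because earlier readouts of these data set them apart from their label. All oocytes were at the germinal vesicle stage, and each was frozen alone and sequenced as its own library. The labels give neither the strain, the age of the mice, the Cre driver nor the deleted part of the gene, and they do not say what the tube numbers stand for. Each genotype thus had 1 mouse in tubes 27 to 30, so that whatever sets those 2 mice apart and whatever sets the tubes apart cannot be told apart. The question was which transcripts differed between the tube sets in the same direction in both genotypes.

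A fully grown germinal vesicle oocyte has paused in meiotic prophase and has nearly stopped transcription. It lives on stored messages for ribosomal proteins, mitochondria, maternal-effect proteins and rodent-specific oocyte factors, and their poly(A) tails change in length as some are kept silent and others translated. Granulosa and cumulus cells surround the oocyte and pass it metabolites through gap junctions, so that traces of their RNA can be carried into an oocyte library. Dnm1l encodes Drp1, a GTPase that rings mitochondria and pinches them apart.

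Dnm1l was read first because it checks the labels. It stood at 144 to 179 CPM (counts scaled to the library's total) in the 4 Drp1_KO oocytes of tubes 27 to 30 and at 234 to 322 CPM in the 4 Drp1_WT oocytes, which did not overlap. Among the oocytes compared in tubes 1 to 15 it ran from 178 to 251 CPM under the Drp1_KO label and from 254 to 311 CPM under the Drp1_WT label. Of the oocytes left out, Drp1_KO tube 10 stood at 274 CPM and Drp1_WT tubes 11 to 15 at 116 to 156 CPM. The separation in tubes 1 to 15 thus holds only for the oocytes kept and is no check of the labels there. The log2 difference of Dnm1l between the tube sets was -0.08 (SE 0.11, adjusted p = 0.742 by edgeR). A single library went against its label in other genes. Mfhas1, which stood at 20.4 to 39.0 CPM under the Drp1_KO label and 1.79 to 5.47 CPM under the Drp1_WT label in tubes 1 to 15, was at 20.8 CPM in Drp1_WT tube 29, against 1.08, 2.22 and 5.00 CPM in Drp1_WT tubes 27, 28 and 30 and 19.4 to 24.1 CPM in the 4 Drp1_KO oocytes. Its neighbour Eri1 did likewise, with 83.7 CPM in Drp1_WT tube 29 and 32.5 to 44.1 CPM in the other 3 tubes. The oocyte in that tube is called the library labelled Drp1_WT tube 29, and values without it are given where they differ.

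The libraries of tubes 27 to 30 were oocyte libraries of much the same depth as the others. Totals ran from 5430739 to 7406895 counts in the 8 oocytes and from 3178509 to 7104219 in the 22. All 16 oocyte markers on the list had counts in all 8 oocytes, at 41.2 to 7623 CPM. Detected genes averaged 13679 ± 346 (SD, n = 2 mice) in tubes 27 to 30 and 13896 ± 155 (SD, n = 6 mice) in tubes 1 to 15, with 13435 in mouse d and 13924 in mouse 5. Of 8 measures of depth and makeup compared as mouse means, with the tube set reassigned among the mice of each genotype, 0 passed. The exact two-sided permutation p ranged from 0.125 to 1, and from 0.333 to 1 when adjusted over the 8, where 16 arrangements allow nothing below 0.0625.

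The number of single genes that separated the tube sets beyond the spread between mice differed with the test. Of 13239 genes tested with genotype as a term, 9 passed an adjusted p of 0.05 by edgeR, which is 0.068% of those tested, and all 9 had the same sign in both genotypes. DESeq2 with the same design called 126, 8 of the 9 among them, and limma-voom on single oocytes 707, with 6 of the 9. The 4 higher in tubes 27 to 30 (0.0302%) were Dpys, Ankrd33b, Dcpp3 and Slc22a30, and the 5 lower (0.0378%) were Pabpn1l, Arpc1b, Inhba, Slc6a14 and Ldha. At an unadjusted p under 0.05 there were 2161 genes, 16.3% of those tested: 1151 were higher in both genotypes, 1004 lower in both, and 6 (0.0453%) had opposite signs. The fit averages the difference over the genotypes, so genes with a small p mostly share their sign for that reason. Shared signs among the 9 and among the 2161 are thus a description and no separate test. The call count moved when most of the single mice were left out, though little without mouse d. It was 839 without mouse 3, 32 without mouse 1, 4 without mouse b or 2, 3 without mouse 5 and 2 without mouse a or c, and it was 2 without the library labelled Drp1_WT tube 29. The p-values measure the spread between mice, and a lone mouse in a group was assumed to vary like the others.

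Across genes the direction was often shared. The sign of the tube set difference was the same in Drp1_KO and Drp1_WT for 8705 genes, 65.8% of those tested. As a description over genes, which are not independent and which share libraries and scaling within each genotype, the differences correlated with r = 0.25 over all genes and r = 0.51 over the 8871 genes with at least 5 CPM. Both mice of tubes 27 to 30 lay above all 6 other mice for 1143 genes (8.63%) and below all 6 for 1149 genes (8.68%).

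**Figure D1:**
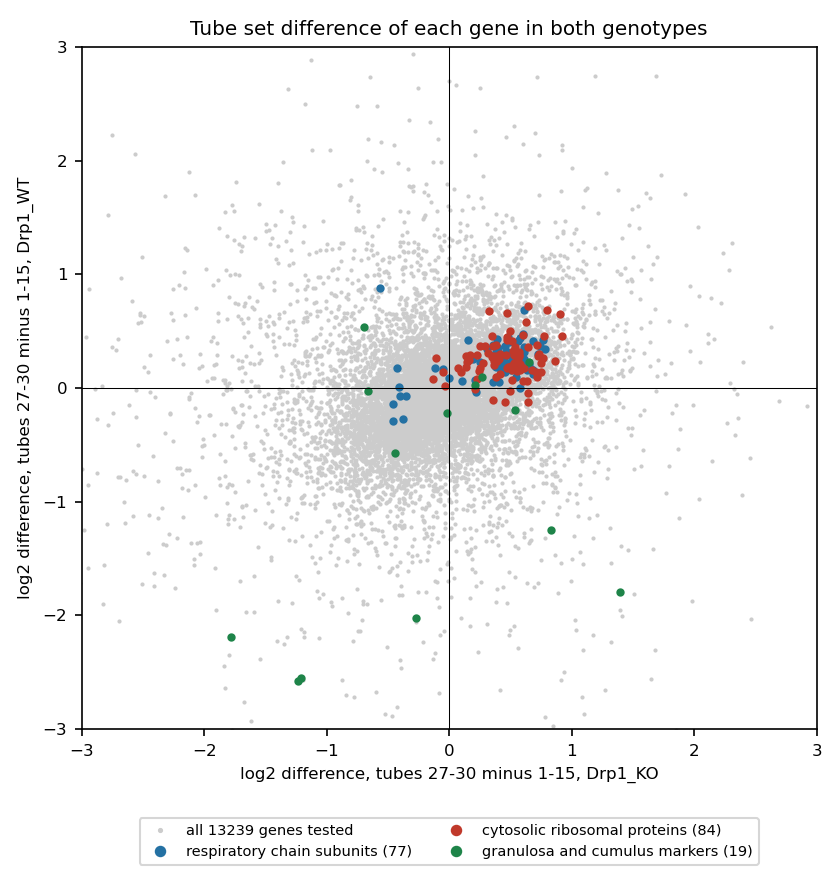
Log2 difference of each tested gene between tubes 27 to 30 and tubes 1 to 15, in Drp1_KO (x axis) and in Drp1_WT (y axis); grey points are all 13239 genes, and 142 genes lie beyond the axes, which end at 3. Of the 161 ribosomal protein and respiratory chain genes, 140 sit in the upper right, higher in both genotypes, and the granulosa and cumulus markers are drawn in green. Among all genes 65.8% had the same sign in both genotypes, counting both directions.

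Dpys, which encodes dihydropyrimidinase, an enzyme of pyrimidine breakdown (ENSMUSG00000022304, chromosome 15, 39768487 to 39857470 on the minus strand, GRCm38), was present or absent by oocyte. It stood at 49.2 CPM in Drp1_KO tube 28, at 41.2 CPM in the library labelled Drp1_WT tube 29 and at 37.7 CPM in Drp1_WT tube 30. It had 0 counts in the other 5 oocytes of tubes 27 to 30, in all 22 oocytes of tubes 1 to 15 and in the 6 left out. Thus 3 of 8 oocytes, from both mice, carried the message and the rest of the set held none of it. Summed over oocytes there were 783 counts in tubes 27 to 30 and 0 in tubes 1 to 15, which is at least 676-fold higher against a floor of 3 counts over the 22 oocytes together. Dpys passed the filter on low counts only through the tube set where it was high, so its call had to be a difference and is given as a description. edgeR gave an adjusted p = 4.5e-05 on mouse sums, while DESeq2 gave an adjusted p = 0.121 and limma-voom on single oocytes 0.104.

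Ankrd33b, which encodes an ankyrin repeat protein (ENSMUSG00000022237, chromosome 15, 31291478 to 31367726 on the minus strand, GRCm38), was high in the same 3 oocytes. It stood at 14.05 CPM in Drp1_KO tube 28, at 34.2 CPM in Drp1_WT tube 30 and at 2.396 CPM in the library labelled Drp1_WT tube 29. The other 5 oocytes held 0 to 0.169 CPM, and the 22 oocytes of tubes 1 to 15 held 0 to 0.423 CPM. It too passed the filter only through tubes 27 to 30. On mouse sums edgeR gave an adjusted p = 2.6e-05 and DESeq2 2.6e-21, while limma-voom on single oocytes gave 0.240, so the tools disagreed widely on this gene. The genes lie 8.4 Mb apart, and of the 6 tested genes within 1 Mb of Dpys and the 8 within 1 Mb of Ankrd33b, 0 passed. Beside Ankrd33b the smallest p was that of Fam173b, also named after its values were seen (log2 1.20, adjusted p = 0.164 by edgeR). Without these 3 oocytes, a choice made after seeing the data, 4 genes passed, and Dcpp3 was the 1 shared with the 9.

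Dcpp3 and Slc22a30 were higher in most oocytes of the set rather than in a few. Dcpp3, of the demilune cell and parotid protein family, stood at 47.4, 5.20, 23.1 and 14.2 CPM in Drp1_KO tubes 27, 28, 29 and 30 and at 11.9, 36.2, 33.5 and 14.5 CPM in Drp1_WT tubes 27, 28, 29 and 30. In tubes 1 to 15 its lowest, median and highest values were 4.06, 8.65 and 19.8 CPM. All but Drp1_KO tube 28 lay above that median, and the groups overlapped. Its log2 difference was 1.33 (SE 0.21, adjusted p = 0.0489 by edgeR), on mouse means of 24.3 ± 0.577 (SD, n = 2) against 9.75 ± 2.35 CPM (SD, n = 6). Dcpp3 has near-identical neighbours on its chromosome, so reads may be split among copies.

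Slc22a30, of the organic anion transporter family, stood at 19.2, 18.9, 8.94 and 7.18 CPM in Drp1_KO tubes 27 to 30 in order of tube, and at 5.54, 9.05, 18.8 and 10.5 CPM in the Drp1_WT tubes. Across tubes 1 to 15 it ran from 2.33 to 10.6 CPM with a median of 5.10 CPM. All 8 oocytes were above that pooled median, with overlap at the lower end. Drp1_WT tube 27, at 5.54 CPM, was below the median of the Drp1_WT oocytes of tubes 1 to 15, 5.71 CPM. The log2 difference was 1.21 (SE 0.20, adjusted p = 0.0489 by edgeR). It also has close paralogs beside it. Without mouse a, mouse c or the library labelled Drp1_WT tube 29, the 2 genes that passed were Dpys and Ankrd33b.

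Pabpn1l had the smallest adjusted p of the lower genes. It encodes an embryonic poly(A)-binding protein that oocytes need for clearing maternal messages. It stood at 58.8, 55.5, 62.4 and 110.5 CPM in Drp1_KO tubes 27, 28, 29 and 30 and at 154, 127, 47.6 and 64.7 CPM in Drp1_WT tubes 27, 28, 29 and 30. In tubes 1 to 15 the lowest, median and highest values were 95.01, 189 and 252 CPM. All 8 oocytes were below that median, and 3 of the 8, Drp1_KO tube 30 and Drp1_WT tubes 27 and 28, reached the range of the others. Mouse means were 90.4 ± 16.9 (SD, n = 2) against 178 ± 25.9 CPM (SD, n = 6), a log2 difference of -0.98 (SE 0.14, adjusted p = 0.0390 by edgeR) that was -1.03 in Drp1_KO and -0.93 in Drp1_WT. Without Drp1_KO tube 28 and Drp1_WT tubes 29 and 30 it was -0.66 (adjusted p = 0.214 by edgeR).

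Arpc1b, a subunit of the Arp2/3 complex that branches actin filaments, was lower in the same way. It stood at 39.8, 35.9, 31.0 and 51.4 CPM in the Drp1_KO oocytes and at 66.2, 89.4, 53.3 and 56.9 CPM in the Drp1_WT oocytes, in order of tube. In tubes 1 to 15 it ran from 68.6 to 131 CPM with a median of 101 CPM, so that 7 of the 8 lay below that range and Drp1_WT tube 28 was within it. The log2 difference was -0.89 (SE 0.14, adjusted p = 0.0489 by edgeR).

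The 3 other lower genes were scarce in all oocytes, and they are named here after their values were seen. Of these, Inhba and Slc6a14 passed the filter on low counts only through tubes 1 to 15. Inhba, the beta A subunit of inhibin and activin, made mainly by granulosa cells, had 1 count in the 8 oocytes together and 157 in the 22. Slc6a14, an amino acid transporter, had 3 counts in the 8 and 232 in the 22. Over summed totals that is 0.0204 CPM (95% exact Poisson interval 0.000515 to 0.113) against 1.23 CPM (1.05 to 1.44) for Inhba and 0.0611 (0.0126 to 0.178) against 1.82 CPM (1.60 to 2.07) for Slc6a14, intervals that cover counting error only. Ldha, the A subunit of lactate dehydrogenase, stood at 0 to 2.06 CPM in the 8 and had a median of 2.41 CPM in the 22, with a highest value of 12.5 CPM. Its log2 difference was -2.15 (SE 0.35), and edgeR gave each of the 3 genes an adjusted p = 0.0489.

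**Figure D2:**
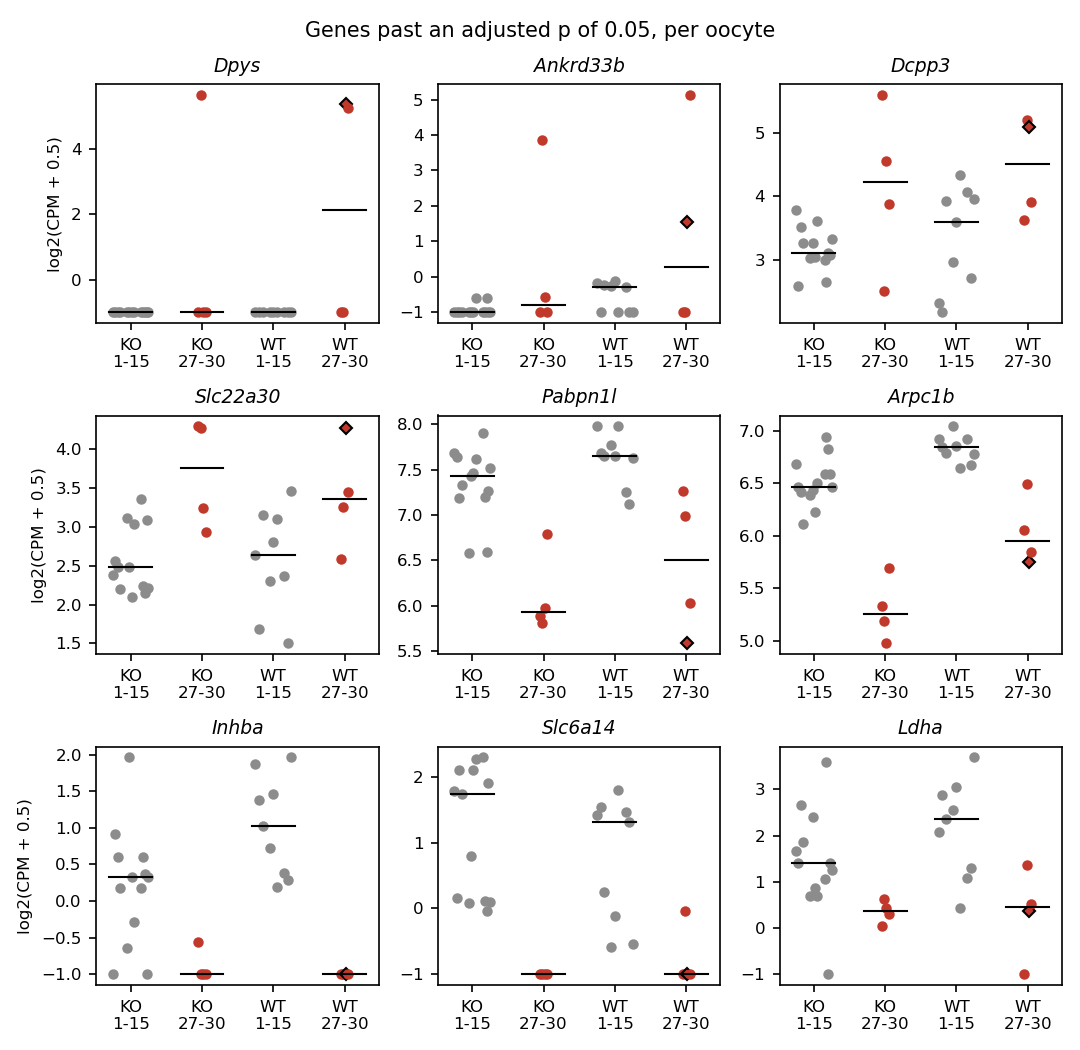
Level of each of the 9 called genes per oocyte, as log2(CPM + 0.5), by genotype and tube set; grey points are tubes 1 to 15, red points tubes 27 to 30, the outlined diamond is the library labelled Drp1_WT tube 29, and bars are medians of oocytes. Dpys and Ankrd33b are high in 3 red oocytes, while Pabpn1l and Arpc1b are shifted down in nearly all 8.

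Read by oocyte, 6 genes had no overlap between the 8 and the 22, 2 higher (0.0151% of genes) and 4 lower (0.0302%). On mouse sums 0 of these 6 passed, with adjusted p from 0.169 to 0.285 by edgeR, and they were named after their values were seen. Adgrg6, an adhesion G protein-coupled receptor, stood at 46.5, 43.7, 34.4 and 31.7 CPM in the Drp1_KO oocytes and at 38.2, 33.7, 31.5 and 33.2 CPM in the Drp1_WT oocytes, in order of tube. The 22 others reached at most 29.6 CPM, with a median of 22.3 CPM. Polb, the DNA polymerase of base excision repair, stood at 172 to 221 CPM in the 8 and at 118 to 169 CPM in the 22. The log2 differences were 0.91 (SE 0.19) for Adgrg6 and 0.50 (SE 0.13) for Polb.

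The 4 genes below the range of the others were Shisa5, Lmo7, Ncapd3 and Srpk1. Shisa5, a membrane protein known as a p53 target, stood at 18.4 to 26.7 CPM in the 8 and at 28.1 to 52.2 CPM in the 22. Ncapd3, a subunit of the condensin II complex, stood at 46.1 to 60.8 CPM against 62.3 to 94.8 CPM. Srpk1, a kinase of splicing factors, stood at 366 to 461 CPM against 483 to 604 CPM, and Lmo7, a LIM domain protein of cell junctions, at 190.0 to 246 CPM against 249 to 345 CPM. The gap between the groups was narrow in all of these, and for Srpk1 the log2 difference was -0.28 (SE 0.12).

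**Figure D3:**
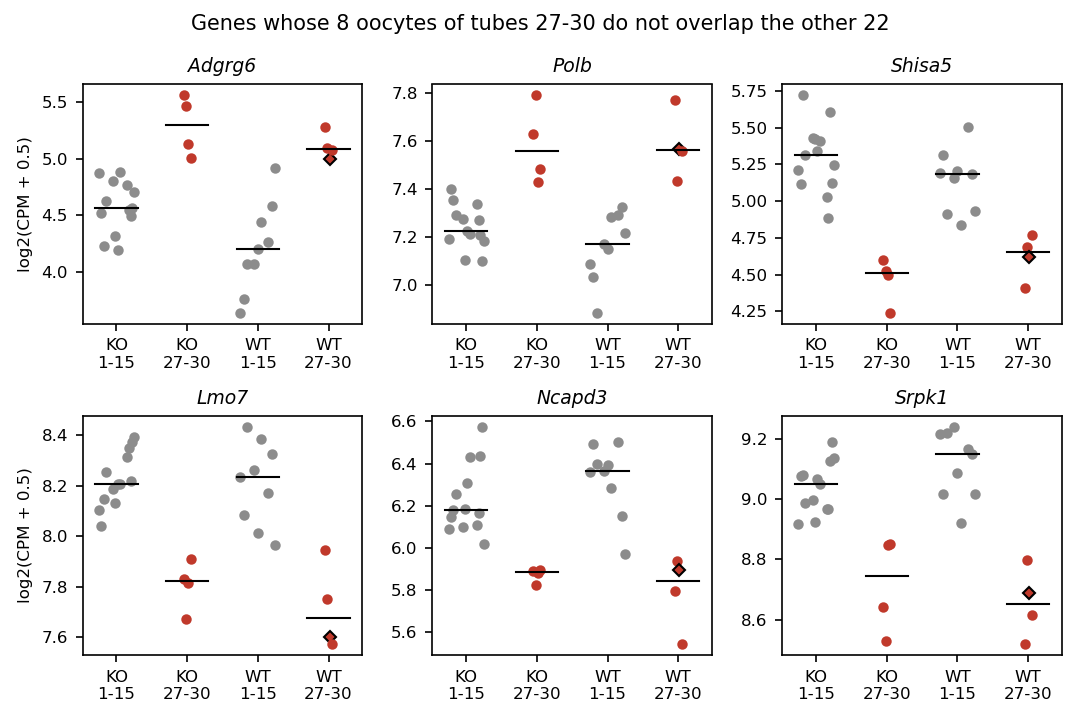
Level per oocyte, as log2(CPM + 0.5), of the 6 genes whose 8 oocytes of tubes 27 to 30 (red) lie wholly above or below the 22 oocytes of tubes 1 to 15 (grey); bars are medians and the diamond is the library labelled Drp1_WT tube 29. Adgrg6 and Polb are higher in both genotypes, and Shisa5, Lmo7, Ncapd3 and Srpk1 lower.

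The pathway pattern was broad and small. Messages for cytosolic ribosomal proteins, the building blocks of the ribosome, stood higher in tubes 27 to 30, with no single member past the adjusted threshold. Of 34 small subunit genes, 20 had an unadjusted p under 0.05 and were higher in both genotypes and 0 were lower, beside 8.69% higher and 7.58% lower among all genes. Their median log2 difference was 0.40, with 0.53 in Drp1_KO and 0.26 in Drp1_WT, where all genes had -0.02, -0.03 and -0.02. Of 50 large subunit genes, 16 were higher and 0 lower at that unadjusted p, with a median of 0.34. Summed small subunit genes stood at 2282, 2705 and 3375 CPM (lowest, median and highest) in the 8 oocytes and at 1721, 2194 and 3848 CPM in the 22. All 8 were above the median of the 22, but none was above its highest value. By mouse, 2893 CPM in mouse d and 2667 CPM in mouse 5 stood beside 1766 to 2748 CPM in the 6 others. The share of all ribosomal protein genes, 1 of the 8 measures of depth and makeup, was 0.671% in mouse d and 0.634% in mouse 5. The 6 others ran from 0.445% to 0.650% (exact two-sided permutation p = 0.3125, 0.417 adjusted over the 8, n = 2 and 6 mice).

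The ribosomal protein genes named here had the lowest p of their lists, and their differences lay above the list medians of 0.40 and 0.34. Rps20 encodes a small subunit protein. It stood at 84.5, 85.8, 55.3 and 87.8 CPM in the Drp1_KO oocytes and at 78.6, 58.3, 77.6 and 72.7 CPM in the Drp1_WT oocytes, in order of tube. The 22 others ran from 33.5 to 68.97 CPM with a median of 52.7 CPM, so that Drp1_KO tube 29 and Drp1_WT tube 28 lay within their range. The log2 difference was 0.60 (SE 0.14, adjusted p = 0.224 by edgeR). Rpl7, of the large subunit, stood at 82.3 to 119.5 CPM in the 8 and at 58.4 to 95.5 CPM in the 22, a log2 difference of 0.53 (SE 0.14, adjusted p = 0.230). Rps24, Rps29, Rpl22l1, Rpl30 and Rpl38 had log2 differences of 0.51 to 0.70. With the trend of the differences on transcript length and GC content removed, a choice made after seeing the data, Rps29 had 0.14 in place of 0.51 and Rpl38 0.39 in place of 0.62. Processed copies of these genes are common in the genome and reads may be shared with them.

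Ribosomal protein messages are known for a pyrimidine-rich start, the terminal oligopyrimidine tract, through which their translation is controlled together. The 30 bases around the RefSeq start (20 before, 10 from the start on; GRCm38.p6) are printed for 3 of the named genes (for Rps24 the first of its RefSeq starts), of which Rpl38 holds the letters searched and the others do not, with the letters CTTTC in capitals where they occur on the gene's strand.
Rpl38 (chr11:114668560-114668589, plus strand): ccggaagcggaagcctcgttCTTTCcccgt
Rpl22l1 (chr3:28805488-28805517, plus strand): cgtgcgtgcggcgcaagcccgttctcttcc
Rps24 (chr14:24490658-24490687, plus strand): acgcccccgcgctggggtccttccttgcgc
CTTTC, searched on the gene's strand alone, was in this window of 16 of 63 ribosomal protein genes with a RefSeq entry (25.4%) and of 460 of 10385 tested genes (4.43%). Ribosomal protein genes with the letters had a median log2 difference of 0.33 between the tube sets and those without had 0.33, while among all tested genes with a window the medians were 0.02 with and -0.02 without. A match in this window is a description of letters and no sign of a site.

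Nuclear messages for mitochondrial ribosomes and the respiratory chain stood higher as well, again with 0 members past the adjusted threshold. Those for pyruvate oxidation and the TCA cycle had a median of -0.06. Of these 34 genes, 2 were higher and 2 lower at an unadjusted p under 0.05, beside 8.69% higher and 7.58% lower among all genes. All 8 oocytes had sums below the median of the 22. By mouse, 4416.5 CPM in mouse d lay below the 6 others and 4790 CPM in mouse 5 within their 4573 to 5074 CPM. Mitochondrial ribosomal proteins, which build the organelle's own translation machine, had 32 of 77 genes higher in both genotypes and 0 lower at an unadjusted p under 0.05, with a median of 0.30 (0.34 in Drp1_KO, 0.25 in Drp1_WT). Nuclear-encoded subunits of the respiratory chain, the complexes of oxidative phosphorylation, had 44 of 77 higher and 1 lower, with a median of 0.36 (0.46 in Drp1_KO, 0.25 in Drp1_WT). Summed respiratory chain genes stood at 11520, 13073 and 14445 CPM (lowest, median and highest) in the 8 oocytes and at 9724, 11274 and 15403 CPM in the 22. All 8 lay above the median of the 22 and within its range. Mouse d and mouse 5, at 13075 and 13170 CPM, stood at the top of the 6 others, which ran from 9904 to 13074 CPM. The share of these genes, added after the data were seen, had an exact two-sided permutation p of 0.25 (n = 2 and 6 mice). The sum of mitochondrial ribosomal proteins, also added then, had a permutation p of 0.125.

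Ndufb8, a subunit of complex I, stood at 141, 134, 116 and 126 CPM in the Drp1_KO oocytes and at 136, 131, 149.98 and 134 CPM in the Drp1_WT oocytes, in order of tube. Across tubes 1 to 15 it ran from 93.3 to 135 CPM with a median of 107 CPM. Every oocyte of the set lay above that median, and the highest of the 22 reached into the middle of the set. Its log2 difference was 0.41 (SE 0.12, adjusted p = 0.238 by edgeR), and Ndufb5, Ndufb6 and Ndufb11 of the same complex had 0.46, 0.49 and 0.40. With the trend on length and GC content removed, Ndufb8 had 0.38 and Ndufb5 0.51, but Ndufb6 had 0.08 and Ndufb11 0.12. Among mitochondrial ribosomal proteins, Mrpl13 had 0.56, Mrps31 0.55, Mrpl47 0.54 and Mrps14 0.60, each with an adjusted p = 0.238 by edgeR.

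The mitochondrial genome had opposite signs in the genotypes. Its 11 tested genes had a median log2 difference of 0.53 in Drp1_KO and -0.32 in Drp1_WT, with 0 at an unadjusted p under 0.05 in both directions. Its share of counts was 0.380% in mouse d and 0.272% in mouse 5, against 0.166% to 0.450% in the 6 others. mt-Cytb, which encodes cytochrome b, stood at 1218, 1557, 1030.2 and 926 CPM in the Drp1_KO oocytes and at 1068, 836, 1300.0 and 844 CPM in the Drp1_WT oocytes, in order of tube. The 22 others ran from 335 to 2315 CPM, a range that holds all 8, and all 8 were above their median of 800.3 CPM. Among all genes 8.69% were higher and 7.58% lower at the unadjusted threshold. Genes of mitochondrial fission, fusion and cristae, the setting of Drp1 itself, had 0 of 25 higher and 1 lower. That gene was Dnm2, a dynamin of membrane scission, with a log2 difference of -0.67 (SE 0.27, adjusted p = 0.259 by edgeR), or -0.39 with the trend on length and GC content removed.

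Proteasome subunits form the protease that destroys ubiquitin-tagged proteins. Of 46 genes, 15 were higher and 2 lower at the unadjusted threshold, beside 8.69% and 7.58% among all genes. The subunits had a median of 0.19 (0.17 in Drp1_KO, 0.22 in Drp1_WT). Summed, they stood at 11422, 12300 and 13246 CPM (lowest, median and highest) in the 8 oocytes and at 10604, 11357 and 12225 CPM in the 22. Of the 8, 5 were above the highest of the 22. Mouse d had 12325 CPM and mouse 5 had 12350 CPM, against 10661 to 11830 CPM in the 6 others. This sum was added after the data were seen, and its exact permutation p of 0.0625 (two-sided, n = 2 and 6 mice) is the smallest that 16 arrangements can give. Psmb7 of the catalytic core stood at 322 to 443 CPM in the 8 and 211 to 326 CPM in the 22 (log2 0.51, SE 0.15, adjusted p = 0.238 by edgeR), whereas Psmd3 of the regulatory particle had -0.76 (SE 0.24).

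Other parts of the translation machinery were mixed, beside 8.69% higher and 7.58% lower among all genes at the unadjusted threshold. Of 55 initiation and elongation factors, 12 were higher and 7 lower, with a median of 0.06. Eif2s2, a subunit of the factor that brings the initiator tRNA, had a log2 difference of 0.45, and Eif5a, a factor that eases peptide bond formation, had -0.46. Genes of the nucleolus and ribosome assembly had 6 of 59 higher and 3 lower (median -0.02), and spliceosome genes 7 of 62 higher and 5 lower (median 0.09).

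**Figure D4:**
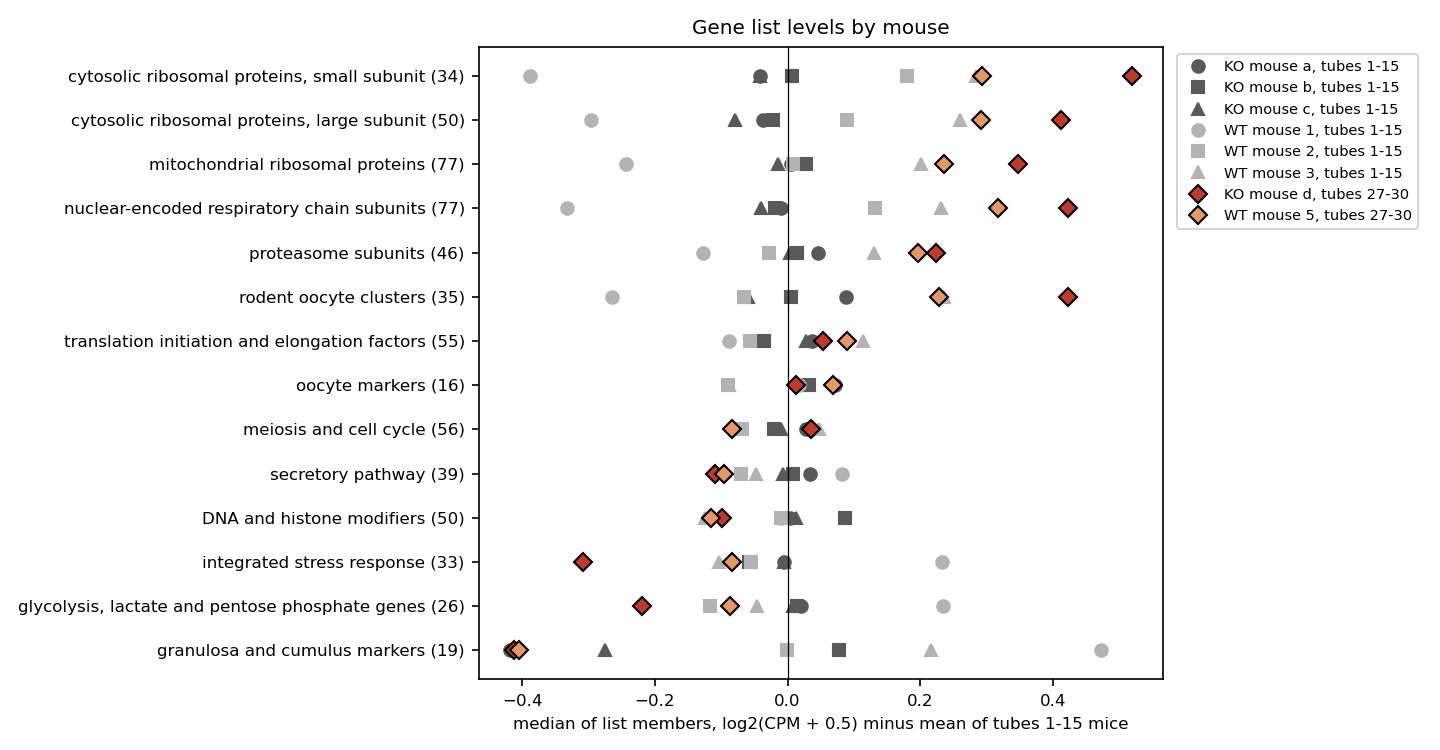
Median level of the members of 14 gene lists in each mouse, as log2(CPM + 0.5) minus the mean of the mice of tubes 1 to 15 (each genotype weighted equally); the number of members tested is in parentheses, and diamonds are mouse d and mouse 5 of tubes 27 to 30. Both diamonds lie to the right of all 6 other mice for ribosomal, respiratory chain and proteasome lists, where mouse 3 is the nearest of the 6 and mouse 1 the farthest.

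The rodent-specific oocyte families, clusters of Obox homeobox genes, Oog, Rfpl4 and Fbxw genes that are among the most abundant messages of the mouse oocyte, stood higher too, with 0 past the adjusted threshold. Of 35 genes, 17 were higher and 0 lower at the unadjusted threshold, beside 8.69% and 7.58% among all genes. The families had a median of 0.33 (0.42 in Drp1_KO, 0.23 in Drp1_WT), which was 0.11 with the trend on length and GC content removed. Together they held 68923, 80553 and 90725 CPM (lowest, median and highest) in the 8 oocytes and 61487, 69351 and 80593 CPM in the 22. Of the 8, 4 exceeded the highest of the 22 and 1 lay below their median. By mouse, mouse d at 83312 CPM lay above the 6 others and mouse 5 at 75538 CPM within them, as they ran from 62077 to 76017 CPM. This sum, added after the data were seen, had an exact two-sided permutation p of 0.125 (n = 2 and 6 mice). Obox2 stood at 11509, 14735, 11850.2 and 11334 CPM in the Drp1_KO oocytes and at 12259, 7514, 8332 and 8950.2 CPM in the Drp1_WT oocytes, in order of tube. The 22 others ran from 5875 to 10852 CPM, so that the Drp1_KO oocytes and Drp1_WT tube 27 lay above them and the other 3 did not. Its log2 difference was 0.60 (SE 0.17, adjusted p = 0.238 by edgeR). Fbxw15 had 0.55 and stood above the median of the 22 in all 8 oocytes. With the trend removed Obox2 had 0.29 and Fbxw15 0.24. Members of each cluster are close copies, and their reads may be split among them.

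Other oocyte genes did not share this shift as a group, and their counts stand beside 8.69% higher and 7.58% lower among all genes. Genes for the zona pellucida, secreted factors and oocyte transcription factors had 6 of 28 higher and 2 lower (median 0.02). The maternal-effect list had 2 of 35 higher and 6 lower (median -0.03), Pabpn1l among the latter. Dppa3, which protects maternal DNA methylation in the zygote, stood at 3716 to 5355 CPM in the 8 and 2414 to 4337 CPM in the 22 (log2 0.48, SE 0.16, adjusted p = 0.238 by edgeR). Oosp2, a secreted oocyte protein, had 0.60. With the trend on length and GC content removed both were near 0, at 0.07 for Dppa3 and 0.07 for Oosp2. The list for RNA storage, polyadenylation and decay had 0 of 63 higher and 5 lower (median -0.09), with Cpeb1, which binds the cytoplasmic polyadenylation element, at 359.8 to 672 CPM in the 8 and 538 to 1031 CPM in the 22 (log2 -0.39, SE 0.17, adjusted p = 0.282 by edgeR).

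Meiosis and cell cycle genes were near the background of 8.69% higher and 7.58% lower. Of 56, 4 were higher and 6 lower at the unadjusted threshold, with a median of -0.06, so that the members below are single values. Gpr3, the receptor whose cyclic AMP signal holds the oocyte in prophase, stood at 10.5, 10.8, 10.1 and 14.7 CPM in the Drp1_KO oocytes and at 10.1, 20.2, 18.8 and 13.8 CPM in the Drp1_WT oocytes, in order of tube. The 22 others ran from 13.2 to 33.9 CPM with a median of 20.6 CPM, and all 8 were below that median. The log2 difference was -0.62 (SE 0.17, adjusted p = 0.238 by edgeR). Pttg1, or securin, which holds separase in check, had 0.45 (0.28 with the trend on length and GC content removed), and Stag3, a cohesin of meiosis, had -0.82.

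Regulators of DNA and histones had 1 of 50 genes higher and 7 lower at the unadjusted threshold, beside 8.69% and 7.58% among all genes. Their median was -0.12 (-0.16 in Drp1_KO, -0.14 in Drp1_WT), and -0.01 with the trend on length and GC content removed. Their summed level stood at 3934, 4533 and 5249 CPM (lowest, median and highest) in the 8 and at 4606, 5300 and 5902 CPM in the 22, and all 8 were below the median of the 22. Dnmt1, the maintenance DNA methyltransferase, stood at 779, 738, 796 and 835 CPM in the Drp1_KO oocytes and at 919, 1014, 853 and 761 CPM in the Drp1_WT oocytes, in order of tube. Values in tubes 1 to 15 were 935 to 1411 CPM, and Drp1_WT tube 28 alone of the 8 lay within that range. Its log2 difference was -0.38 (SE 0.12, adjusted p = 0.238 by edgeR). Kat7, a histone acetyltransferase, had -0.61 and Chd4, a chromatin remodeller, had -0.50. With the trend removed Dnmt1 had -0.18, Kat7 -0.51 and Chd4 -0.33.

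Lists of stress and metabolism had medians from -0.23 to 0.05, and their counts stand beside 8.69% higher and 7.58% lower among all genes. Glycolysis and pentose phosphate genes had 0 of 26 higher and 5 lower (median -0.16), with the glucose transporter Slc2a1 at 8.15 to 12.9 CPM in the 8 and 6.92 to 26.9 CPM in the 22 (log2 -0.56). The integrated stress response had 1 of 33 higher and 2 lower (median -0.23): Ddit3, a transcription factor of that response, had 0.39, and Ppp1r15a, which reverses the phosphorylation of eIF2, had -0.48. Its summed level stood at 1253, 1550 and 1813 CPM (lowest, median and highest) in the 8 oocytes and at 1579, 1818 and 2269 CPM in the 22, so that all 8 were below that median and 5 below the lowest of the 22. By mouse, 1481 CPM in mouse d lay below the 6 others and 1630 CPM in mouse 5 within their 1585 to 2174 CPM. The median of this list was -0.14 in Drp1_KO and -0.19 in Drp1_WT. With the trend removed its median was -0.12 and Ddit3 had 0.16. The secretory pathway had 3 of 39 higher and 5 lower (median -0.10), DNA damage response and repair 3 of 52 and 6 (median -0.11), mitophagy and autophagy 0 of 30 and 5 (median -0.10), and fatty acid oxidation and lipid droplets 6 of 29 and 3 (median 0.05). The remaining lists, apart from markers of other cells, had medians between -0.17 and 0.15. In all of these 37 lists the members past the adjusted threshold were Pabpn1l, Ldha and Inhba.

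Several granulosa and cumulus markers had few counts in tubes 27 to 30, while the 4 at 20 CPM or more and some of the scarcer ones differed little. Of 29 markers in the table, 19 were tested, with 0 higher and 7 lower at the unadjusted threshold: Inhba, Gja1, Inha, Inhbb, Hsd17b1, Cyp11a1 and Fst. Among all genes 8.69% were higher and 7.58% lower. Inhba, Gja1, Inhbb and Fst passed the filter on low counts only through tubes 1 to 15, so their lower values are given as a description. Gja1, the connexin of granulosa cell gap junctions, had 16 counts in the 8 oocytes together and 389 in the 22, and Inha, the alpha subunit of inhibin, had 79 and 810. The log2 differences were -3.24 (SE 0.70, adjusted p = 0.193 by edgeR) for Gja1 and -2.12 (SE 0.47, adjusted p = 0.206) for Inha. The list's median was -0.51, and -1.41 without Drp1_KO tube 28 and Drp1_WT tubes 29 and 30. Leaving out 1 mouse gave medians from -1.39 (without mouse d) to -0.47 (without mouse 1). Of the defining markers, Amh, Amhr2 and Foxl2 had 2, 4 and 3 counts in the 8 and 7, 15 and 8 in the 22, and Pgr, Ptx3 and Tnfaip6 had 0 in all 30. The 8 held 49117637 counts in total and the 22 held 127236823, so these few counts do not show lower levels. Esr2, Serpine2, Cyp19a1 and Nr5a2, which stood at 20 CPM or more in these libraries, had log2 differences of -0.12 to 0.20. Among the scarcer tested markers outside the 7, Kitl had 0.45, Lhcgr 0.05, Star -0.02, Fshr -0.08 and Has2 -0.30. Bex4 had -0.51, Ptgs2 -1.47 and Hsd3b1 -1.88.

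All 29 granulosa markers summed to 748 ± 28.1 CPM (SD, n = 2 mice) in tubes 27 to 30 and 830 ± 70.4 CPM (SD, n = 6 mice) in tubes 1 to 15, an exact two-sided permutation p of 0.25, with mouse d at 768 CPM within the 749.7 to 945 CPM of the 6 others and mouse 5 at 728 CPM below them. The 25 markers under 20 CPM, a split made after seeing the data, summed to 11.1 to 29.1 CPM in the 8 oocytes and to 11.97, 36.8 and 104 CPM (lowest, median and highest) in the 22. By mouse this was 19.9 CPM in mouse d and 19.14 CPM in mouse 5, below all 6 others, which ran from 23.4 to 70.5 CPM. The exact two-sided permutation p was 0.125 (n = 2 and 6 mice). Inhba, Slc6a14 and Ldha were lower alongside, and the part that carried-over RNA had in their difference was not tested. Markers of stroma, vessels, epithelium, blood and immune cells summed to 75.5 to 116 CPM in the 8 and 86.5 to 149 CPM in the 22, with 1 of 13 tested markers higher and 3 lower. The higher one was Dcn, decorin, a matrix proteoglycan of stroma, at 0.520 to 12.5 CPM in the 8 and 0 to 4.10 CPM in the 22 (log2 1.49, SE 0.39, adjusted p = 0.224 by edgeR).

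Properties of the transcripts moved with the tube set in both genotypes. Genes were put in 5 bins of like size. The bin with the shortest exonic length, up to 2300 bases, had a median log2 difference of 0.19, and the other bins had -0.04 to -0.07. By GC content of the longest transcript the medians went down from 0.13 in the lowest bin to -0.22 in the highest. In the shortest bin 18.6% of genes were higher in both genotypes at an unadjusted p under 0.05, and in the bin with most GC 14.2% were lower. Of the 77 respiratory chain genes 54 are in the shortest bin, as are 27 of 35 rodent oocyte genes, 21 of 34 small subunit and 32 of 50 large subunit ribosomal protein genes. With the trend on length and GC removed in each mouse, a choice made after seeing the data, the medians were 0.28 and 0.24 for small and large subunit ribosomal proteins, 0.17 for mitochondrial ribosomal proteins, 0.20 for the respiratory chain, 0.10 for the proteasome, 0.11 for the rodent oocyte families and -0.01 for DNA and histone modifiers. The integrated stress response then had -0.12, the granulosa markers -0.85 and the mitochondrial genome -0.59. The part of library making in these differences was not tested.

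**Figure D5:**
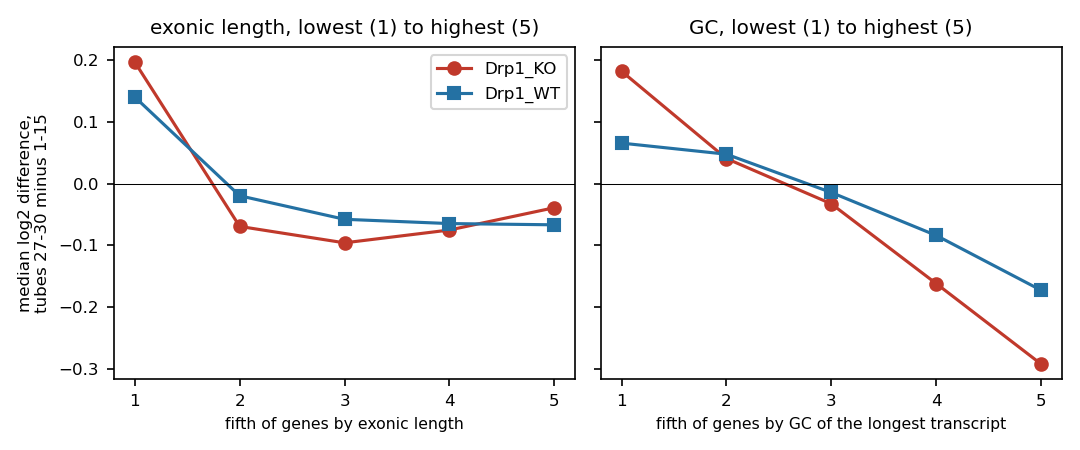
Median log2 difference between tubes 27 to 30 and tubes 1 to 15 in each of 5 bins of genes, by exonic length (left) and by GC content of the longest transcript (right), from lowest to highest, in Drp1_KO (circles) and Drp1_WT (squares). Both genotypes show the highest medians in the shortest genes and a decline with GC content.

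By edgeR's interaction test the tube set difference was unequal between Drp1_KO and Drp1_WT for 2 genes of 13239 (0.0151%). Each genotype had 1 mouse in tubes 27 to 30, so a trait of that mouse and a difference between the genotypes cannot be told apart. In this test 416 genes (3.14%) had an unadjusted p under 0.05. Ublcp1, a ubiquitin-like domain phosphatase that acts on the proteasome, stood at 2.02, 3.81, 3.83 and 5.47 CPM in Drp1_WT tubes 27, 28, 29 and 30 and at 52.9, 23.2, 55.7 and 42.7 CPM in the Drp1_KO tubes. The 22 oocytes of tubes 1 to 15 ran from 5.10 to 36.6 CPM with a median of 29.6 CPM. All 4 Drp1_WT oocytes were low, and 3 of the 4 Drp1_KO oocytes lay above the 22. The log2 difference in Drp1_KO minus that in Drp1_WT was 3.83 (SE 0.39, adjusted p = 0.0051). Scimp, an adaptor of immune cell signalling, stood at 149 CPM in the library labelled Drp1_WT tube 29 and at 0.159 to 1.88 CPM in the other 7, beside 0 to 3.89 CPM in the 22, so that its call (log2 -5.26, SE 0.64, adjusted p = 0.017) came from 1 library.

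Within a genotype, where 1 mouse stood against 3, edgeR called 3 genes in Drp1_KO (0.0227%) and 9 in Drp1_WT (0.068%), of which 2 (0.0151%) and 8 (0.0604%) were higher in tubes 27 to 30. At an unadjusted p under 0.05 there were 1493 (11.3%) and 751 (5.67%). Dpys and Ankrd33b were in both sets. Both passed the filter on low counts only through tubes 27 to 30, so these calls are a description and no agreement of separate tests. In Drp1_KO, tube 28 alone held the 284 counts of Dpys and nearly all those of Ankrd33b. The third in Drp1_KO, named after its values were seen, was Slc27a2, a fatty acid transporter and acyl-CoA synthetase, with a log2 difference of -5.64 (SE 0.68, adjusted p = 0.0106) beside -0.46 in Drp1_WT. The interaction test did not call it (adjusted p = 0.0967).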

How the data were processed

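Single germinal vesicle oocytes were made into SMARTer and Nextera libraries and read from a single end, per the labels' protocols. No molecular identifiers are named, and the kits mark no strand. The authors deposited whole-number read counts per gene. Tools listed for those counts, per the submitters' processing notes and without a role, are Picard, Subread 1.5.2, STAR and featureCounts, on GRCm38. Of 21968 gene IDs, 21876 matched GENCODE M21, and 0 value columns had no sample.

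Counts were summed per mouse, filtered with filterByExpr, scaled by TMM and tested with edgeR 4.0.16 (R 4.3.3) by the quasi-likelihood test, with genotype and tube set as terms and Benjamini-Hochberg adjustment over 13239 genes. A 4-group model gave the within-genotype and interaction values. The labels name mice, so mice were the replicates, and oocytes of 1 mouse were not taken as independent. Alternatives used DESeq2 1.42.0, limma 3.58.1 (voom on oocytes, mouse as random effect), other scalings and filters, thinning, and leaving out each mouse or doubted library. Sums and CPM used Python 3.11.15, pandas 2.3.3, numpy 2.4.6 and scipy 1.17.1, and plots matplotlib 3.10.9. The fits were tested on simulated data. Among 43 pairs of oocytes of 1 mouse the lowest chi-square per degree of freedom was 5.77, above sampling noise, so no library was taken as a duplicate. Totals per oocyte were 3178509 to 7406895 counts. Intervals and floors cover counting error only.

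The members and the 37 gene lists (1425 symbols, 21 unmatched) were chosen with earlier results of these data known. Named are the label checks, called genes of at least 5 CPM that lay outside the range of the 6 other mice and kept their sign in both genotypes, at most 4 genes per list, by lowest p, and genes of the interaction test. Others are said to be chosen after their values were seen.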

Additional observations from a re-analysis of the deposited data

Results flagged for a closer look

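In 100 groups examined, each of 4 or 9 oocytes or of 6 mouse means, 12 values lay far from the rest of their group. The rule sets apart about 1 in 20 groups where values are normally distributed. Most groups were of genes picked by their values in these data, so the 12 are a description and are not set against chance. In the Drp1_KO oocytes of tubes 27 to 30, tube 28 stood alone with Dpys at 49.25 CPM (next 0) and Ankrd33b at 14.05 CPM (next 0.169), tube 30 with Pabpn1l at 110.5 CPM (next 62.4), and tube 27 with Inhba at 0.178 CPM, which is 1 count. Tube 27 also had the most genes detected after thinning, 13086 (next 12903).

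In the Drp1_WT oocytes of tubes 27 to 30, tube 30 stood alone with Ankrd33b at 34.24 CPM (next 2.396), the library labelled tube 29 with Scimp at 148.5 CPM (next 1.88), and tube 28 with Slc6a14 at 0.476 CPM, which is 3 counts. Tube 27 had the largest total, 7406895 counts (next 6395744), and the fewest detected genes, 13508 (next 14052), or 12804 after thinning (next 13420). In tubes 1 to 15, Drp1_WT tube 6 of mouse 2 had the highest ribosomal protein share of its group, 0.877% (next 0.642%).

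The tube set difference was unequal between the genotypes in 2 genes by edgeR's interaction test, with 1 mouse per genotype in tubes 27 to 30, so that mouse and genotype cannot be told apart there. The log2 difference in Drp1_KO minus that in Drp1_WT was 3.83 for Ublcp1 (adjusted p = 0.0051) and -5.26 for Scimp (adjusted p = 0.017). The Scimp value rests on the library labelled Drp1_WT tube 29.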

How the results depend on the processing

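The count of 9 genes with the tube set difference in both genotypes was 9 with RLE or upper quartile factors or with TMM factors from genes outside the ribosomal protein lists (the same 9), and 9 with the length and GC trend removed (7 shared). It was 21 with no filter, 3 with a filter of 1 CPM, 3 with oocytes thinned to 3178509 counts, 2 with no genotype term, 2 without the library labelled Drp1_WT tube 29 and 4 without Drp1_KO tube 28 and Drp1_WT tubes 29 and 30. DESeq2 gave 126 (125 with the same direction in both genotypes, 8 shared), limma-voom on single oocytes 707 (6 shared), and adding the 6 oocytes left out 623 (9 shared). Leaving out each mouse gave 2 to 839, with the highest value without mouse 3. Within Drp1_KO the 3 calls became 16 with DESeq2, 1 without the 3 tubes, and 2 to 904 without each mouse (904 without mouse 1). Within Drp1_WT the 9 became 25 with DESeq2, 4 without tube 29, 1 without the 3 tubes and 4 to 26 without each mouse. The 2 interaction calls became 11 with DESeq2, 1 without tube 29 and 1 to 26 without each mouse. The cause of these moves was not tested.

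The mitochondrial genome share, 0.00710 percentage points higher in tubes 27 to 30, was -0.00602 without the library labelled Drp1_WT tube 29, -0.149 with the 6 oocytes left out, -0.0272 without the 3 tubes and -0.0568 to 0.0710 without each mouse. The difference in total counts ran from -96634 to 752080 without each mouse, the lowest without mouse 5. Medians of the ribosomal, mitochondrial ribosomal, respiratory chain, proteasome and rodent oocyte lists kept their sign under 21 of 21 alternatives. No paired analysis was possible because the mice of the 2 tube sets and genotypes share no numbers and a tube number names a different oocyte in each genotype.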
